A study of Mus musculus with 8 samples.

Results

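The mitochondrial carrier family Slc25 was described in quadriceps muscle of 3 mouse genotypes. Members were the protein-coding genes named Slc25a followed by a number that reached at least 1 FPKM in at least 2 of the 8 libraries. FPKM divides the fragments of a gene by its transcript length in kilobases and by the size of the library. The deposited table held 47 such genes among 43628 entries, and 38 of them passed the minimum and are the members. Of the 38, 37 also passed it on the WT libraries alone, and 35 lay at 1 FPKM or more in all 8 libraries. Slc25a45 passed only because of the mdx and dy2J libraries. The 9 genes below the minimum were Slc25a2, Slc25a13, Slc25a18, Slc25a21, Slc25a31, Slc25a41, Slc25a43, Slc25a48 and Slc25a54, and the highest single value among them was 1.15 FPKM for Slc25a13 in mdx 2.

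The study compared 40 male mice aged 8 weeks, and RNA was pooled within genotype before sequencing. The WT group (C57BL/10ScSnJ) held 14 mice in 3 pools. The mdx group (C57BL/10ScSn-Dmdmdx/J, mutated in the dystrophin gene Dmd) held 15 mice in 3 pools, with 4 to 6 mice a pool in both groups. The dy2J group (C57BL/6J Lama2dy-2J, homozygous as dy2J/dy2J, mutated in the laminin alpha-2 gene Lama2) held 11 mice in 2 pools of 5 to 6. The mutations are carried in every cell of the animal, and the labels name no treatment. The dy2J mice differ from the WT and mdx mice in strain as well as in genotype, so the effects of strain and mutation on a dy2J difference cannot be told apart. Every n below counts pools of mice, and p-values measure the spread between pools.

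Carriers of this family sit in the inner mitochondrial membrane and exchange nucleotides, phosphate, metabolites of the citric acid cycle, amino acids, acylcarnitines and cofactors between the matrix and the cytosol. Most are built from a repeated module of paired membrane helices, which open in turn to either side of the membrane. In skeletal muscle the ADP/ATP carrier and the phosphate carrier supply ATP synthase and release its product, and the aspartate/glutamate and oxoglutarate carriers move reducing equivalents from glycolysis into the matrix. Carriers of citrate and dicarboxylates are better known from liver and fat, where exported citrate feeds fatty acid synthesis.

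The mutated genes and tissue markers were examined first. Dmd lay at 3.98 to 5.50 FPKM in mdx against 27.7 to 31.6 in WT and 22.8 and 28.1 in dy2J. Lama2 lay at 5.31 and 5.07 FPKM in dy2J against 9.34 to 9.43 in WT. Across all genes, Pearson correlations of log2(FPKM + 1) were 0.973 to 0.987 between libraries of a group and 0.897 to 0.965 between groups, as a description of the libraries. The 10 markers of skeletal muscle fibres summed to 112800 to 129000 FPKM in the WT pools, 81700 to 124300 in mdx and 75530 and 83340 in dy2J, although Myh4 had a value of 0 in every WT pool and mdx 1, and Acta1 in WT 1. Of these 10, 3 were lower in mdx than in WT and 5 in dy2J. Myh4 was the 1 listed as higher in both models. It reached the minimum only through the models, so its difference from WT is a description with no test. With these values of 0, the fibre sums do not rest on the same genes in every pool and are not compared between groups. Whether the values of 0 are true levels was not tested. Of 6 endothelial markers 3 were lower in mdx and 1 in dy2J, and their sum was 89.5 to 103 FPKM in the WT pools, 69.1 to 79.5 in mdx and 75.0 and 76.8 in dy2J. No member of the carrier family was listed at 0 in any library. Of 10 macrophage markers 9 were higher in mdx than in WT and 7 in dy2J, and their sum was 135 to 162 FPKM in the WT pools, 784 to 1727 in mdx and 411 and 489 in dy2J. Of 6 markers of regenerating fibres all were higher in both models, although 2 of them reached the minimum only through the models, and of 6 fibroblast markers 5 were higher in mdx and 4 in dy2J. All 5 markers of proliferating cells reached the minimum only through the models, so they are given by their sum, which was 1.86 to 2.11 FPKM in the WT pools, 10.2 to 30.4 in mdx and 7.05 and 7.91 in dy2J. Of 7 adipocyte markers 0 were higher in mdx, also at an unadjusted p under 0.05 (limma), and 4 in dy2J. Of all tested genes 23.9% were higher and 12.8% lower in mdx, and 11.5% and 9.04% in dy2J. No other test of these lists was run. In bulk muscle, fewer cells of a type and less RNA per cell cannot be told apart.

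In WT muscle 4 carriers made up most of the family's summed level. Slc25a4, the ADP/ATP carrier of heart and muscle, took 51.6% to 54.5% of the summed FPKM of the 38 members. Slc25a3, the phosphate carrier, Slc25a12, the calcium-regulated aspartate/glutamate carrier, and Slc25a11, the oxoglutarate/malate carrier, followed, and the 4 together took 87.6% to 88.7%. In mdx these 4 took 80.5% to 86.0% and in dy2J 83.7% and 84.7%, below every WT pool. The summed level itself was 3319 to 3544 FPKM in the WT pools, 1920 to 2749 in mdx and 2480 and 2558 in dy2J, so both models lay below WT without overlap. Summed FPKM over all genes also varied between libraries (556218 to 785513), and the scaling between libraries is not known. The family sum was not set against that total. The remaining members spread from Slc25a39, a glutathione carrier at a WT mean of 46.0 FPKM, down to Slc25a45 at 0.971. The order of the 5 highest WT means (Slc25a4, Slc25a3, Slc25a12, Slc25a11, Slc25a39) involved gaps larger than the range of the pools. Slc25a39, Slc25a20 and Slc25a5, ranked 5 to 7, overlapped with their neighbours in single pools.

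**Figure D1:**
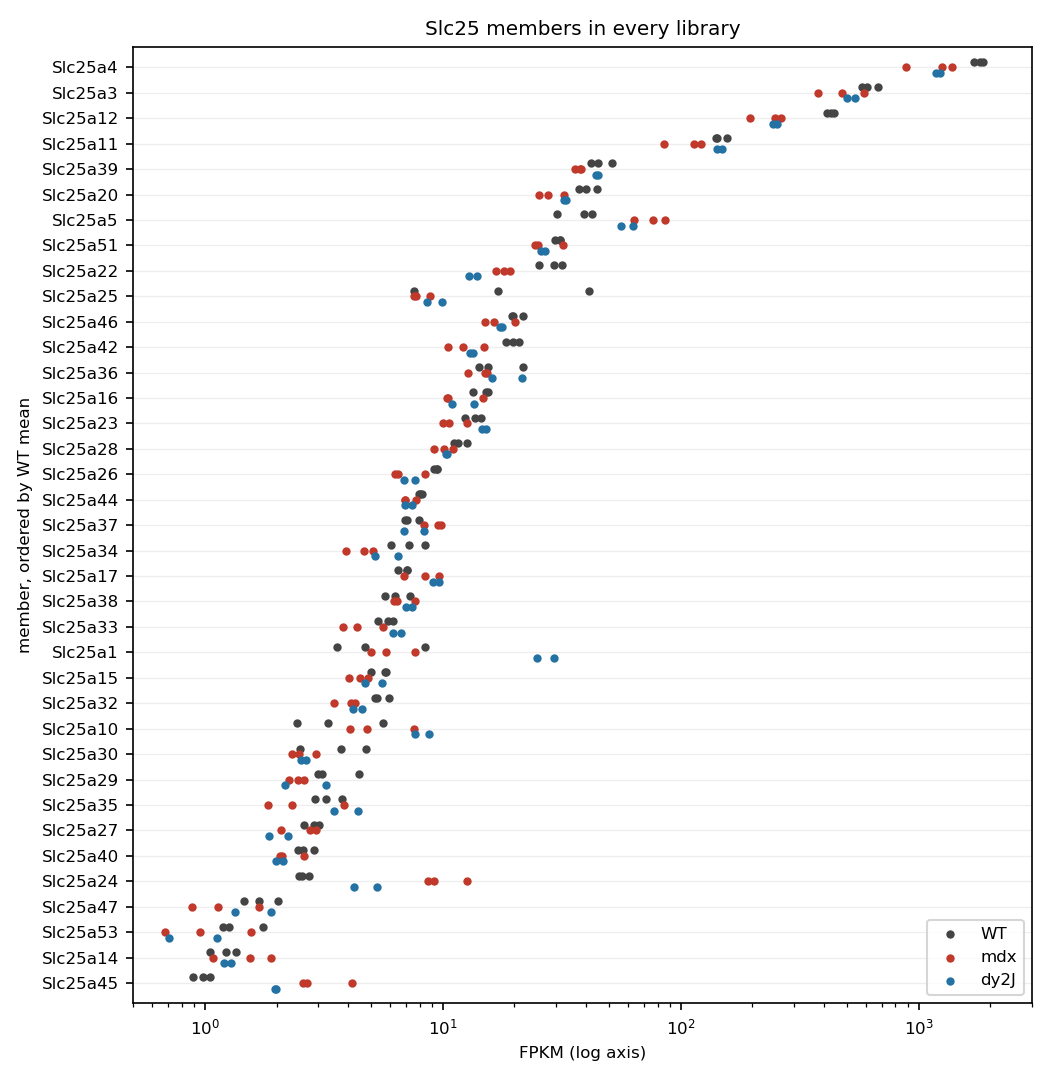
FPKM of 37 of the 38 members in each of the 8 libraries on a log axis, ordered by the WT mean, with 1 point per pool. The 4 highest members stand apart from the rest, from Slc25a4 at 1713 to 1866 FPKM in WT to Slc25a11 at 141 to 156, and Slc25a1, Slc25a24 and Slc25a45 show a model far from WT.

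Differences between genotypes were tested with limma on log2(FPKM + 1), with Benjamini-Hochberg adjustment over the 12830 genes tested, and a gene was called at an adjusted p under 0.05. In mdx against WT, 3 of 38 members (7.89%) were higher, where 23.9% of all tested genes were, and 10 (26.3%) were lower, where 12.8% of all tested genes were. The median difference of the members was -0.27 on the log2 scale, against 0.07 over all tested genes. It was negative for 29 of the 38 members and for 42.5% of all tested genes. The 3 higher members include Slc25a45, which reached the minimum through the models. Of the 37 members that reached it in WT, 2 (5.41%) were higher and 10 lower, where 20.8% and 14.1% of all genes that reached it in WT were. The lower calls depended on the scaling of the libraries: 3 members were higher and 21 lower after quantile normalization, and 3 and 20 after rescaling by the median ratio. Quantile normalization moved the median of all genes in this comparison to -0.07. Without WT 3 the lower calls numbered 4, without WT 2 they numbered 6, and without mdx 3 they numbered 17. Over all genes the lower calls also moved, from 1645 with all libraries to 1164, 1114 and 2024 in that order. They numbered 2947 after quantile normalization and 2425 after rescaling by the median ratio.

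In dy2J against WT, 5 members (13.2%) were higher against 11.5% of all tested genes, and 3 (7.89%) were lower against 9.04%. Of the 37 members that reached the minimum in WT, 4 (10.8%) were higher and 3 (8.11%) lower, where 10.8% and 9.96% of all such genes were. These shares of the members lay near those of all genes. The members' median difference was -0.16 on the log2 scale, against 0.01 over all tested genes. The higher calls fell to 1 without WT 1, to 2 without WT 2 and to 3 without WT 3. Over all genes the higher calls also fell, from 1478 to 912, 973 and 996 in that order. The lower calls rose to 5 without mdx 3, where those over all genes rose from 1160 to 1388. Counts in this comparison without a dy2J pool rest on the 1 pool left and are not given. In dy2J against mdx, 1 member was higher (2.63%) where 2.77% of all tested genes were, and 1 was lower (2.63%) where 3.66% were. The members' median was 0.09 and that of all tested genes -0.08. After quantile normalization or rescaling by the median ratio 3 members were higher and 1 lower, without mdx 3 the higher calls also numbered 3, and without dy2J 1 neither call was made. The comparisons of mdx and dy2J with WT share the same 3 WT pools, so their values are set side by side below and are not independent of each other.

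**Figure D2:**
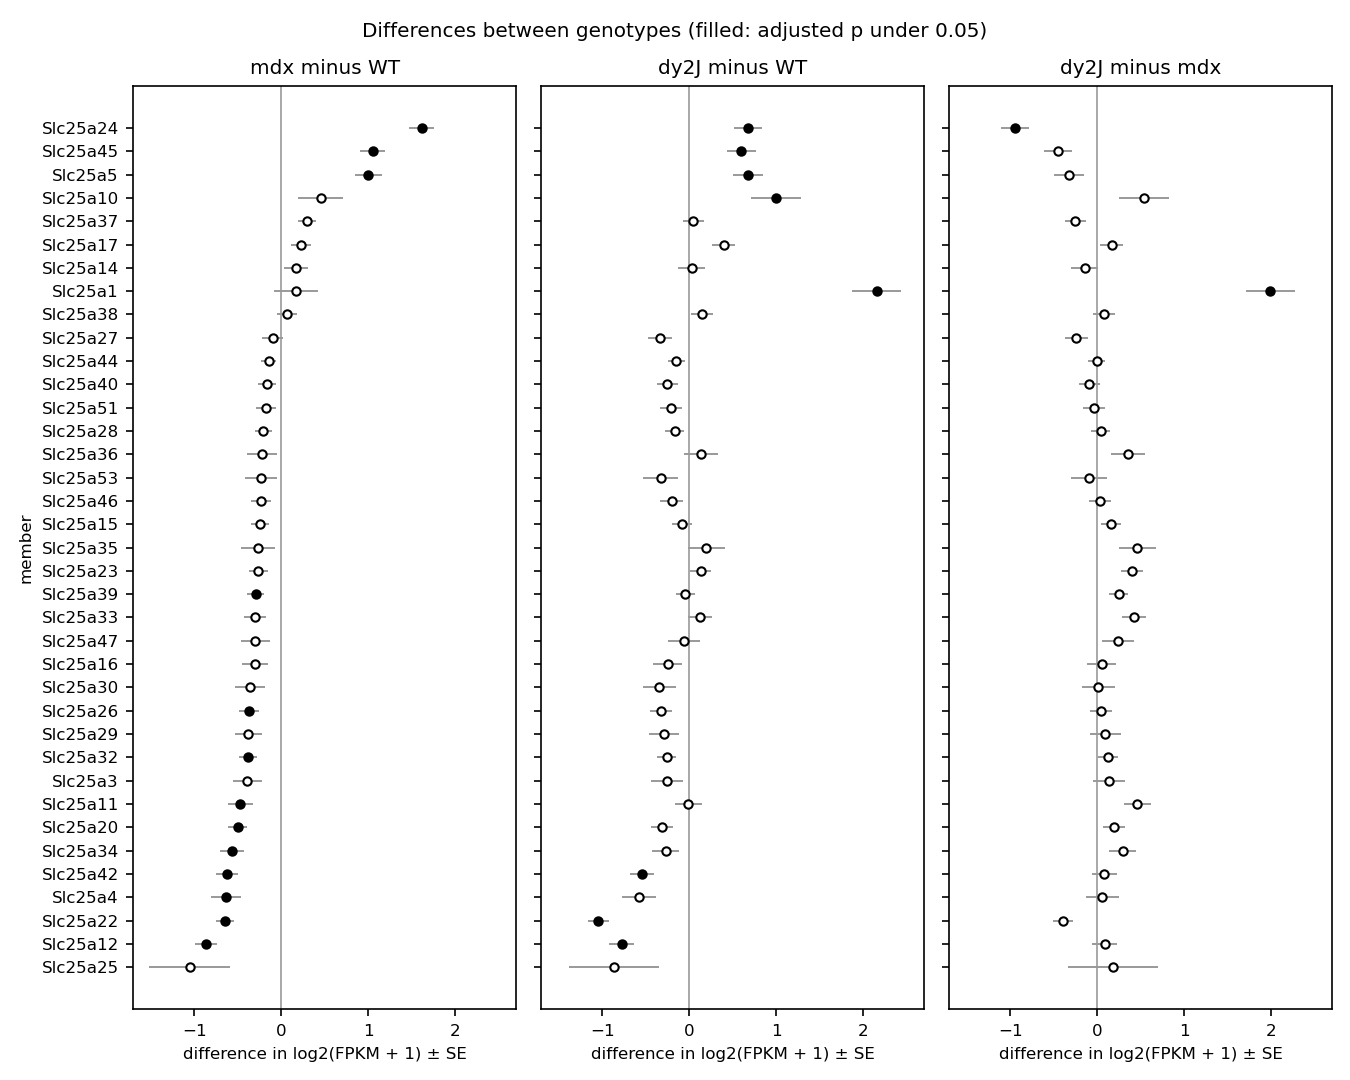
Difference in log2(FPKM + 1) of 37 of the 38 members between genotypes with its SE, 1 panel per comparison, ordered by the difference between mdx and WT (filled points: limma adjusted p under 0.05). Most members sit to the left of 0 in the mdx panel (28 of 37, against 42.5% of all tested genes). Slc25a24, Slc25a45 and Slc25a5 lie to the right of 0 in both models, and Slc25a1 stands apart in both dy2J panels. Slc25a45 reached the minimum only through the models, so its filled points are a description with no test.

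The ADP/ATP and phosphate carriers exchange the substrates and product of ATP synthase. The muscle ADP/ATP carrier Slc25a4 (ENSMUSG00000031633, chromosome 8, 46206797 to 46211284, GRCm38) measured 1812, 1713 and 1866 FPKM in WT 1 to 3, 1256, 889 and 1387 in mdx 1 to 3, and 1181 and 1230 in dy2J 1 and 2. Every pool of both models lay below every WT pool. Slc25a4 fell in mdx by 0.63 ± 0.17 (SE) on the log2 scale (limma adjusted p = 0.0204). Without any 1 WT pool it was -0.67 to -0.61 and did not pass, nor did it pass with no expression minimum. Over 18 alternatives the limma adjusted p ran from 0.00871 to 0.0768. In dy2J the difference was -0.57 ± 0.19 and not called (limma adjusted p = 0.0664), although it passed without mdx 2 or mdx 3 (limma adjusted p of 0.00462 to 0.285 over 18 alternatives). The models differed by 0.06 ± 0.19, which was not called (limma adjusted p = 0.879). Markers of muscle fibres (3 of 10 in mdx, 5 of 10 in dy2J) and of endothelial cells (3 of 6 and 1 of 6) were lower beside Slc25a4 and the other members that fell. Of all tested genes 12.8% were lower in mdx and 9.04% in dy2J. The part of these cells in the falls was not tested.

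Slc25a5 (ENSMUSG00000016319, chromosome X, 36795651 to 36798807), the ADP/ATP carrier isoform of most other and of dividing cells, went the other way. It measured 30.2, 39.4 and 42.3 FPKM in WT, 63.7, 86.3 and 76.8 in mdx, and 63.3 and 56.1 in dy2J. All mdx and dy2J pools lay above all WT pools. Slc25a5 rose in mdx by 1.0 ± 0.16 on the log2 scale (limma adjusted p = 0.00186), and this call held in all 18 alternatives. In dy2J it rose by 0.68 ± 0.17 (limma adjusted p = 0.0282). That call was lost without WT 1, WT 2, dy2J 1 or dy2J 2 (0.54 to 0.76 on the log2 scale, with limma adjusted p of 0.0205 to 0.194 over 18 alternatives). With no expression minimum the dy2J difference did not pass either (limma adjusted p = 0.0654). The models' difference was -0.33 ± 0.17 and not called (limma adjusted p = 0.273). Macrophage markers were also higher in both models (9 and 7 of 10, against 23.9% and 11.5% of all tested genes). The sum of the proliferating cell markers lay above WT in both. The part of these cells in the rise of Slc25a5 was not tested.

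Slc25a5 as a share of the summed Slc25a4 and Slc25a5 level was 1.64%, 2.25% and 2.22% in WT, 4.83%, 8.85% and 5.25% in mdx, and 5.09% and 4.36% in dy2J. Slc25a4 was therefore 43.5 to 59.9 times as high as Slc25a5 in WT, 10.3 to 19.7 times in mdx, and 18.7 and 21.9 times in dy2J. The groups of the models lay apart from WT in this share, which is a description without a test. The phosphate carrier Slc25a3 (ENSMUSG00000061904, chromosome 10, 91116574 to 91124059) measured 581, 610 and 673 FPKM in WT, 479, 376 and 590 in mdx, and 500 and 541 in dy2J. The mdx pools overlapped with WT through mdx 3, and both dy2J pools lay below WT. Its differences were -0.39 ± 0.17 in mdx (limma adjusted p = 0.0987) and -0.25 ± 0.19 in dy2J (limma adjusted p = 0.358), and neither was called. Without mdx 3 the mdx difference was called at -0.55, as it was after rescaling by the median ratio (limma adjusted p from 0.0209 to 0.242 over 18 alternatives).

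The genes for the ADP/ATP carriers differ enough in sequence to be counted apart, whereas Slc25a5 shares sequence with processed pseudogenes. The coding sequences of Slc25a4 and Slc25a5 each hold 894 bases and are identical at 77.4% of positions, the longest identical stretch is 20 bases, and no stretch of 50 bases is shared. Of the 50-base stretches of the longest Slc25a5 transcript, 46.6% also occur in transcripts of other genes (GENCODE M21), against 0 for Slc25a4. The pseudogene Gm5560 matches the coding sequence of Slc25a5 over 145 unbroken bases (coding positions 678 to 822). The 3 pseudogenes that share most with it were listed at no more than 0.147 FPKM, and the handling of reads with several matches was not given in the sources used here, so the level of Slc25a5 is uncertain to that extent. Coding positions 718 to 777 (GRCm38, GENCODE M21) show the pattern, with capitals at the 9 bases where Slc25a4 differs from Slc25a5. The genes lie at chrX:36795651-36798807 (plus strand), chr5:97264828-97265719 (plus strand) and chr8:46206797-46211284 (minus strand).
Slc25a5: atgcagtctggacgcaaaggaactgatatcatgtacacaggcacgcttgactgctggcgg
Gm5560: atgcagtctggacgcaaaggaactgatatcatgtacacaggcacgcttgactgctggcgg
Slc25a4: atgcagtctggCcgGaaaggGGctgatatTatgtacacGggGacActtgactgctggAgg

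The calcium-regulated ATP-Mg/phosphate carriers, which set the adenine nucleotide content of the matrix, held the member with the largest rise in mdx. Slc25a24 (ENSMUSG00000040322, chromosome 3, 109123149 to 109168457) measured 2.48, 2.75 and 2.55 FPKM in WT, 8.64, 12.6 and 9.14 in mdx, and 5.27 and 4.24 in dy2J. The 3 groups did not overlap, with dy2J between WT and mdx. Slc25a24 rose in mdx by 1.62 ± 0.14 on the log2 scale (limma adjusted p = 0.000235), which held in all 18 alternatives, and in dy2J by 0.67 ± 0.16 (limma adjusted p = 0.0208). The dy2J call was lost without WT 1, WT 3, dy2J 1 or dy2J 2, at 0.54 to 0.80 on the log2 scale (limma adjusted p of 0.00614 to 0.175 over 18 alternatives). It was also lost with no expression minimum (limma adjusted p = 0.0559) and with a replicate block (limma adjusted p = 0.0591). The direct comparison gave a lower level in dy2J than in mdx, by -0.94 ± 0.16 (limma adjusted p = 0.0134). This was lost without dy2J 1 (-1.07) or dy2J 2 (-0.81), with limma adjusted p of 0.0109 to 0.117 over 18 alternatives. Macrophage, regenerating fibre and proliferating cell markers had the same order of groups (their sums for regenerating fibres were 21.6 to 33.5 FPKM in the WT pools, 316 to 596 in mdx and 203 and 221 in dy2J), and their part in the result was not tested.

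Slc25a23, the paralogue of Slc25a24 with the higher WT level, was at 12.4 to 14.5 FPKM in the WT pools, 10.0 to 12.7 in mdx, and 14.6 and 15.3 in dy2J, and was not called. Slc25a24 as a share of the pair was 15.0% to 18.2% in the WT pools, 41.9% to 55.8% in mdx, and 26.5% and 21.8% in dy2J, so the groups did not overlap in the share either. Slc25a25 differed most between WT pools, at 7.56, 41.2 and 17.1 FPKM, against 7.54 to 8.86 in mdx and 9.94 and 8.59 in dy2J. WT 1 lay within the range of mdx, and WT 2 stood far above. The differences of -1.05 ± 0.46 in mdx (limma adjusted p = 0.107) and -0.87 ± 0.52 in dy2J (limma adjusted p = 0.262) were not called. Without WT 1 both passed (-1.62 and -1.43 on the log2 scale), and over 18 alternatives the limma adjusted p ran from 0.0079 to 0.245 in mdx and from 0.0306 to 0.568 in dy2J. Slc25a25 shares 379 exonic bases with Naif1 on the opposite strand, which was listed below 1 FPKM in every library.

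**Figure D3:**
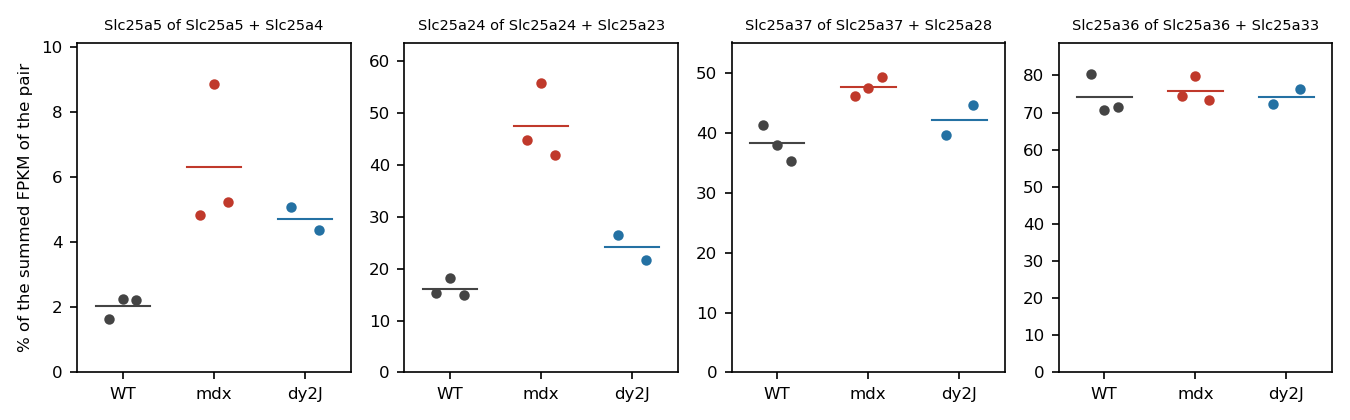
Share of the first gene in the summed FPKM of a pair of related carriers, in percent, with 1 point per pool and a line at the group mean. The shares of Slc25a5 (1.64% to 2.25% in WT) and Slc25a24 (15.0% to 18.2% in WT) are higher in both models, whereas the share of Slc25a36 overlaps between all groups (70.6% to 80.3%).

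Among the carriers of citrate, dicarboxylates and oxoacids, Slc25a1 alone was called between the models. Slc25a1 (ENSMUSG00000003528, chromosome 16, 17925211 to 17928219), the citrate carrier that exports citrate for fatty acid and sterol synthesis, measured 3.60, 4.72 and 8.44 FPKM in WT, 5.75, 7.66 and 5.01 in mdx, and 29.4 and 24.9 in dy2J. The WT and mdx pools overlapped, and both dy2J pools lay far above all others. Slc25a1 rose in dy2J by 2.16 ± 0.28 on the log2 scale against WT (limma adjusted p = 0.00215), a call that held in all 18 alternatives, and was not called for mdx (0.17 ± 0.25, limma adjusted p = 0.636). The direct comparison gave dy2J above mdx by 1.99 ± 0.28 (limma adjusted p = 0.00619). That call was lost without dy2J 1 (1.87 on the log2 scale, limma adjusted p of 0.00174 to 0.072 over 18 alternatives).

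Slc25a10 (ENSMUSG00000025792, chromosome 11, 120491840 to 120499187), the dicarboxylate carrier that exchanges malate and succinate for phosphate, measured 2.44, 3.28 and 5.61 FPKM in WT, 4.07, 7.57 and 4.80 in mdx, and 8.76 and 7.63 in dy2J. The dy2J pools lay above all others, and mdx 2 came close to them. Slc25a10 rose in dy2J by 1.0 ± 0.29 on the log2 scale (limma adjusted p = 0.0418) and was not called for mdx (0.46 ± 0.26, limma adjusted p = 0.198). With no expression minimum the dy2J difference did not pass (limma adjusted p = 0.109). The dy2J call was lost without WT 1, WT 2, mdx 3, dy2J 1 or dy2J 2 (0.79 to 1.08 on the log2 scale, with limma adjusted p of 0.0179 to 0.226 over 18 alternatives). Without WT 3 the mdx difference was called (0.72, with limma adjusted p of 0.0466 to 0.514 over 18 alternatives).

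Of the 7 adipocyte markers 4 were higher in dy2J, where 11.5% of all tested genes were, and 0 in mdx. Their summed level was 538 to 1010 FPKM in the WT pools, 786 to 892 in mdx and 1288 and 1584 in dy2J. Adipoq, which encodes the fat hormone adiponectin, measured 15.8, 22.5 and 45.4 FPKM in WT, 23.5, 34.9 and 27.4 in mdx and 65.9 and 57 in dy2J. WT 3 was the highest WT pool for Adipoq, Slc25a1 and Slc25a10, and mdx 2 the highest mdx pool for all 3. Adipoq is 1 of the 7 markers and was picked after its values were seen, so this order of pools is a description. The part of fat cells in the rise of either carrier was not tested, and the strain difference cannot be told apart from the mutation.

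Slc25a11 (ENSMUSG00000014606, chromosome 11, 70644196 to 70647479), which exchanges oxoglutarate for malate and belongs to the malate-aspartate shuttle, measured 141, 143 and 156 FPKM in WT, 114, 85.1 and 121 in mdx, and 142 and 149 in dy2J. The mdx pools lay below all others, and the dy2J pools lay within the WT range. It fell in mdx by 0.47 ± 0.14 on the log2 scale (limma adjusted p = 0.0286) and differed by -0.01 ± 0.16 in dy2J (limma adjusted p = 0.975). Between the models, the difference of 0.46 ± 0.16 was not called (limma adjusted p = 0.111), so the level is not shown to differ between them. The mdx call was lost with no expression minimum and without any 1 WT pool, at -0.50 to -0.42 on the log2 scale (limma adjusted p of 0.00669 to 0.0924 over 18 alternatives). Slc25a11 shares 189 exonic bases with Rnf167 on the opposite strand, which lay at 15.8 to 21.1 FPKM.

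The 2 members among the aspartate/glutamate and glutamate carriers were lower in both models, where 12.8% (mdx) and 9.04% (dy2J) of all tested genes were. Slc25a12 (ENSMUSG00000027010, chromosome 2, 71271063 to 71367749), known as aralar, exports aspartate in exchange for glutamate and measured 412, 442 and 429 FPKM in WT, 265, 196 and 250 in mdx, and 253 and 245 in dy2J. All pools of both models lay well below all WT pools. Slc25a12 fell in mdx by 0.86 ± 0.13 on the log2 scale (limma adjusted p = 0.00159), which held in all 18 alternatives, and in dy2J by 0.78 ± 0.14 (limma adjusted p = 0.00824). The dy2J call was lost without dy2J 1 (-0.80) or dy2J 2 (-0.75), with limma adjusted p of 0.00131 to 0.0708 over 18 alternatives. Its paralogue Slc25a13, known as citrin and abundant in liver, took at most 0.584% of the pair in any library.

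Slc25a22 (ENSMUSG00000019082, chromosome 7, 141429739 to 141437892), which carries glutamate with protons, measured 31.6, 25.3 and 29.5 FPKM in WT, 19.1, 16.7 and 18 in mdx, and 13.9 and 12.9 in dy2J. The groups did not overlap, and dy2J was lowest. Slc25a22 fell in mdx by 0.65 ± 0.11 on the log2 scale (limma adjusted p = 0.00241) and in dy2J by 1.04 ± 0.12 (limma adjusted p = 0.00125), and both calls held in all 18 alternatives. The models' difference of -0.39 ± 0.12 was not called (limma adjusted p = 0.0842). Its paralogue Slc25a18 took at most 1.26% of the pair.

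**Figure D4:**
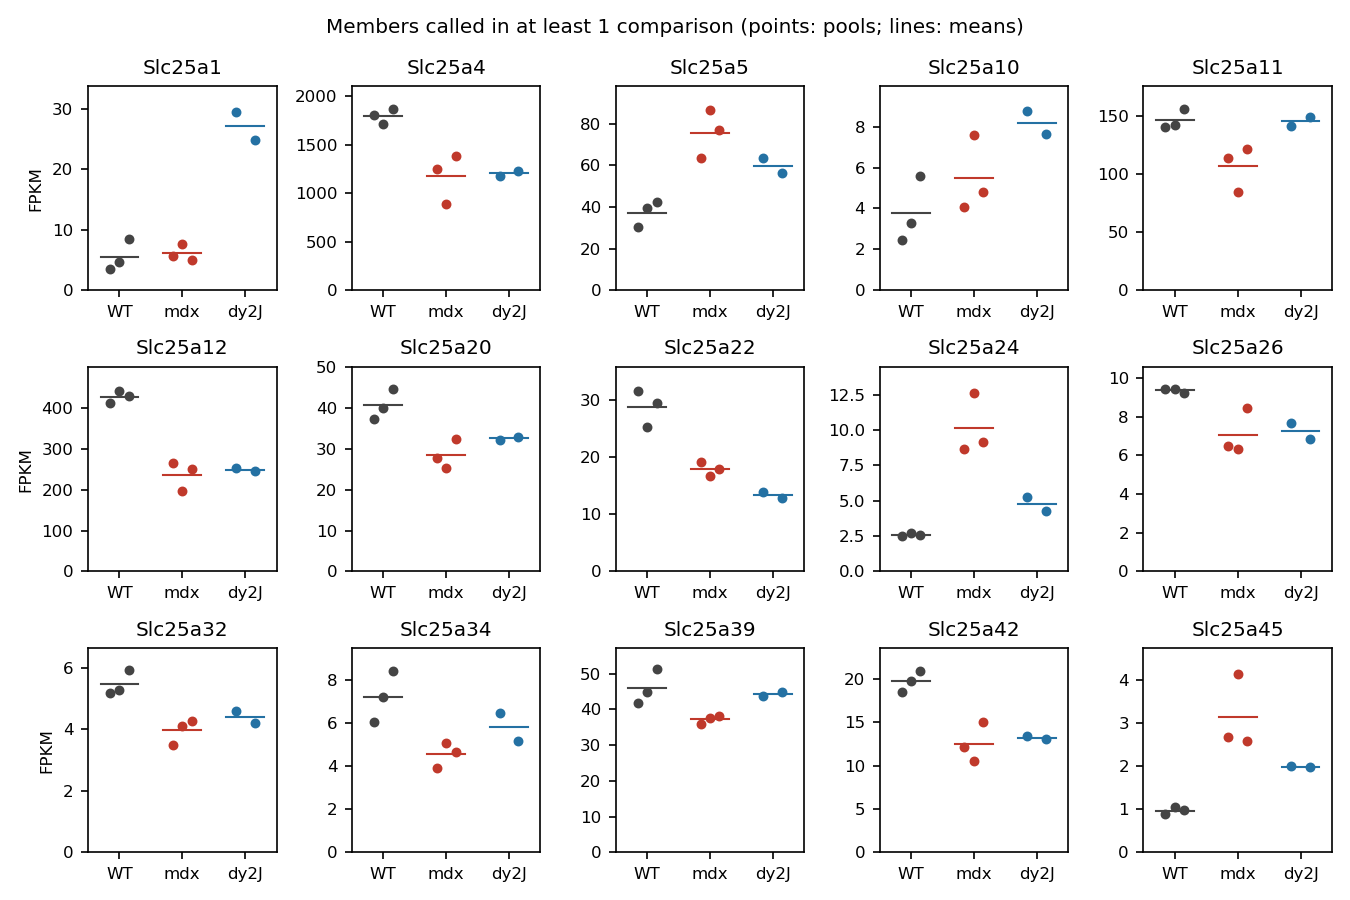
FPKM in each pool (points) and the group mean (lines) for the 15 members called in at least 1 comparison, with every axis starting at 0. Slc25a45 is among the 15 but reached the minimum only through the models, so it is a description with no test. Slc25a1 is high in dy2J only (24.9 and 29.4 FPKM), Slc25a24 is highest in mdx (8.64 to 12.6), and Slc25a12 lies below all WT pools in both models.

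The acylcarnitine carrier Slc25a20 (ENSMUSG00000032602, chromosome 9, 108662088 to 108684641), which brings long-chain fatty acids into the matrix as acylcarnitines, measured 37.4, 40.0 and 44.5 FPKM in WT, 27.7, 25.4 and 32.4 in mdx, and 32.2 and 32.9 in dy2J. Both models lay below all WT pools. Its level fell in mdx by 0.50 ± 0.11 on the log2 scale (limma adjusted p = 0.00941), which held in all 18 alternatives, and the dy2J difference of -0.31 ± 0.13 was not called (limma adjusted p = 0.121). Of the 50-base stretches of its longest transcript 9.96% also occur in transcripts of other genes.

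Carriers of cofactors and nucleotides numbered 9, and 3 of them fell in mdx and 1 in dy2J, where 12.8% and 9.04% of all tested genes did. Slc25a42 (ENSMUSG00000002346, chromosome 8, 70184340 to 70212305), which imports coenzyme A in exchange for adenine nucleotides, measured 18.4, 19.7 and 20.9 FPKM in WT, 12.1, 10.5 and 15.0 in mdx, and 13.4 and 13.1 in dy2J. All pools of the models lay below WT. It fell in mdx by 0.62 ± 0.13 on the log2 scale (limma adjusted p = 0.00569), which held in all 18 alternatives, and in dy2J by 0.54 ± 0.14 (limma adjusted p = 0.0289). With no expression minimum or with a replicate block the dy2J difference did not pass (limma adjusted p = 0.0598 and 0.0639). The dy2J call was lost without any 1 WT or dy2J pool, at -0.58 to -0.50 (limma adjusted p of 0.00781 to 0.149 over 18 alternatives).

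Slc25a32, which carries folate and FAD, measured 5.20, 5.29 and 5.92 FPKM in WT, 3.50, 4.12 and 4.29 in mdx, and 4.59 and 4.21 in dy2J. WT lay above both models. It fell in mdx by 0.38 ± 0.10 on the log2 scale (limma adjusted p = 0.0181), a call lost without WT 3 (-0.33, with limma adjusted p of 0.00156 to 0.0716 over 17 alternatives). Slc25a26, which imports S-adenosylmethionine, measured 9.44, 9.44 and 9.19 FPKM in WT, 6.46, 6.30 and 8.42 in mdx, and 7.66 and 6.86 in dy2J. WT again lay above both models, with mdx 3 nearest. It fell in mdx by 0.37 ± 0.11 on the log2 scale (limma adjusted p = 0.0332). That call was lost with no expression minimum, without any 1 WT pool, without mdx 1 and without mdx 2 (-0.38 to -0.31, with limma adjusted p of 0.00606 to 0.0941 over 18 alternatives). Slc25a26 shares 144 exonic bases with Lrig1 on the opposite strand, which lay at 19.4 to 24.0 FPKM in the WT pools, 10.6 to 14.1 in mdx and 11.3 and 14.4 in dy2J, and strand use in counting was not given in the sources used here.

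Others of the cofactor and nucleotide carriers were not called in any comparison. Among them were Slc25a51, the NAD+ carrier (WT mean 30.6 FPKM), Slc25a36 (17.1) and Slc25a33 (5.80), which carry pyrimidine nucleotides, Slc25a16 (14.7), a candidate coenzyme A carrier, and Slc25a17 (6.88), a carrier of the peroxisome. Of these, Slc25a17 came nearest in dy2J, at 9.63 and 9.10 FPKM against 6.48 to 7.09 in WT (0.40 ± 0.13 on the log2 scale, limma adjusted p = 0.0672). It was called without mdx 1 or without mdx 2 (limma adjusted p of 0.0191 to 0.294 over 18 alternatives).

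Among the iron and glutathione carriers 1 of 4 was called, as lower in mdx, where 12.8% of all tested genes were. Slc25a39 (ENSMUSG00000018677, chromosome 11, 102402985 to 102407946), which brings glutathione into the matrix, measured 41.8, 44.9 and 51.2 FPKM in WT, 36.1, 37.6 and 38.2 in mdx, and 43.9 and 44.9 in dy2J. The mdx pools lay below all others, and dy2J lay within the WT range. It fell in mdx by 0.29 ± 0.10 on the log2 scale (limma adjusted p = 0.045), and the call was lost in 11 of 18 alternatives. They included leaving out WT 2, WT 3 or any 1 mdx or dy2J pool (-0.31 to -0.21, with limma adjusted p of 0.0124 to 0.163 over 18 alternatives). Its paralogue Slc25a40 had a WT mean of 2.64 FPKM. The mitoferrins, which import iron for heme and iron-sulfur clusters, were Slc25a28 (WT mean 11.8) and Slc25a37 (7.31). Slc25a37, the erythroid mitoferrin, was at 8.30 to 9.87 FPKM in mdx against 6.92 to 7.92 in WT (0.30 ± 0.11 on the log2 scale, limma adjusted p = 0.0591). Without mdx 2 it was called at 0.36 (limma adjusted p of 0.0426 to 0.279 over 18 alternatives). Its share of the mitoferrin pair was 35.4% to 41.5% in the WT pools, 46.2% to 49.5% in mdx, and 39.7% and 44.7% in dy2J, higher in mdx than in any other pool. Of 5 erythroid markers tested 5 were higher in mdx and 4 in dy2J, where 23.9% and 11.5% of all tested genes were. The sum over the list was 339 to 469 FPKM in the WT pools, 698 to 1069 in mdx and 673 and 686 in dy2J. The part of erythroid cells in the Slc25a37 level was not tested.

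Members whose substrate is not stated here numbered 5. Slc25a45 (ENSMUSG00000024818, chromosome 19, 5877808 to 5885766) measured 0.888, 1.05 and 0.978 FPKM in WT, 2.68, 4.15 and 2.59 in mdx, and 1.995 and 1.976 in dy2J. The groups did not overlap, with dy2J between WT and mdx, and since the gene passed the minimum only through the models, where it is higher, its values are a description with no test. The differences from WT were 1.05 ± 0.15 on the log2 scale in mdx and 0.60 ± 0.16 in dy2J.

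Slc25a34 (ENSMUSG00000040740, chromosome 4, 141618824 to 141623821) measured 6.07, 7.23 and 8.41 FPKM in WT, 3.91, 5.09 and 4.66 in mdx, and 6.46 and 5.17 in dy2J. The mdx pools lay below all others. Its level fell in mdx by 0.56 ± 0.14 on the log2 scale (limma adjusted p = 0.0135), a call lost without WT 3 (-0.46, with limma adjusted p of 0.00252 to 0.0505 over 18 alternatives), and was not called in dy2J (-0.27 ± 0.16, limma adjusted p = 0.248). Slc25a35 (WT mean 3.31 FPKM), Slc25a47 (1.72) and Slc25a53 (1.40) were not called. Slc25a35 shares 1151 exonic bases with Rangrf on the opposite strand, which lay at 21.5 to 51.7 FPKM over the libraries, so its level is uncertain.

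The remaining members were not called in any comparison. The amino acid carriers among them were Slc25a44 (WT mean 8.04 FPKM), which carries branched-chain amino acids, Slc25a38 (6.42), which carries glycine, Slc25a15 (5.48), which exchanges ornithine and citrulline, and Slc25a29 (3.52), which carries basic amino acids. An unadjusted p under 0.05 (limma) was found for 2 of these 4 in mdx and 0 in dy2J, and for 46.8% and 35.4% of all tested genes. The members related to uncoupling proteins, Slc25a30 (3.66), Slc25a27 (2.83) and Slc25a14 (1.21), were low in every library, and 0 of 3 had such a p in mdx and 1 in dy2J. Slc25a46, a relative of the family in the outer membrane, had a WT mean of 20.3 FPKM. An adjusted p above 0.05 does not show that these levels were equal.

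Promoters of the members were read from RefSeq (GRCm38.p6), as windows of 250 bases before to 50 bases after a gene's start. Of the 38 members 29 matched, with 38 promoters. Windows of the same gene can overlap, such as those of Slc25a23 and of Slc25a14, so a site can be counted more than once. No count per gene was made. The GC box GGGCGG, searched on both strands, occurred in 35 of these 38 windows (92.1%) against 35.7% of all 32851 promoters in the table. CCAAT occurred in 20 (52.6%) against 37.4%, TATAAA in 0 against 13.6%, the oestrogen-related receptor element TCAAGGTCA in 0 against 0.423%, and the NRF1 core CGCATGCG in 0 against 1.87%. None of these motifs contains another. Median GC content was 59.8% in the members' windows and 52.7% over all. The 250 bases before the RefSeq start are printed for the citrate carrier, which was called in dy2J, and for the ADP/ATP carriers, which moved in opposite directions in mdx. Capitals mark GGGCGG and CCAAT on either strand. The windows are chr16:17928220-17928469 (minus strand), chr8:46211063-46211312 (minus strand) and chrX:36795347-36795596 (plus strand). The RefSeq start used for Slc25a4 lies inside the gene bounds given above (46206797 to 46211284). Most of its printed window therefore lies inside those bounds and may be transcribed.
Slc25a1: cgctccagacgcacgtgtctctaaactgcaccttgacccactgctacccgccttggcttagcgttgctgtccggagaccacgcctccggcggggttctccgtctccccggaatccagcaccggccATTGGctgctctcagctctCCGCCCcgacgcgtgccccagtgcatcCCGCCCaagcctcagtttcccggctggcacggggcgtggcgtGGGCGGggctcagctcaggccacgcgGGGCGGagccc
Slc25a4: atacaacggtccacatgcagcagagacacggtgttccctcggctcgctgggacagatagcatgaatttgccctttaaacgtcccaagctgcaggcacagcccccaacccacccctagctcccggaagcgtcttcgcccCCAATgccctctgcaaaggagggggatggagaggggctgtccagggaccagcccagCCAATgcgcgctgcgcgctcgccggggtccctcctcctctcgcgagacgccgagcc
Slc25a5: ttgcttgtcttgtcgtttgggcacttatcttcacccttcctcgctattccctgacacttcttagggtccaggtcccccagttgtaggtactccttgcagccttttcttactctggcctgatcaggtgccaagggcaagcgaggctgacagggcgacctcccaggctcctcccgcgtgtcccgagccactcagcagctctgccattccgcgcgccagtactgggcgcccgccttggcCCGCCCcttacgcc
The Slc25a1 window held 4 GC boxes and 1 CCAAT, that of Slc25a4 held 2 CCAAT, and that of Slc25a5 held 1 GC box. These are matches of letters and do not show binding.

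Family members with other symbols were compared beside the 38. Of 5 such genes (Ucp1, Ucp2, Ucp3, Mtch1 and Mtch2), 2 were higher and 1 lower in mdx, and in dy2J 3 were higher, Ucp1 among them, and 1 lower. Ucp1, the uncoupling protein of brown and beige fat, measured 0.0218, 0.0251 and 0.0657 FPKM in WT, 0.0658, 0.043 and 0.0942 in mdx, and 27.7 and 7.40 in dy2J. The dy2J pools lay far above all others and differed from each other. Ucp1 reached the expression minimum only through these dy2J pools, so its difference from WT of 3.90 ± 0.41 on the log2 scale is a description with no test. Ucp2, which is abundant in immune cells, rose in mdx by 2.06 ± 0.27 (limma adjusted p = 0.000989) and in dy2J by 1.03 ± 0.30 (limma adjusted p = 0.0432). Ucp3, the uncoupling protein relative of skeletal muscle, fell in mdx by 0.87 ± 0.15 (limma adjusted p = 0.00265) and in dy2J by 0.98 ± 0.16 (limma adjusted p = 0.00574). Mtch1, a carrier relative of the outer membrane, rose in mdx by 0.59 ± 0.14 (limma adjusted p = 0.0109).

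Enzymes and transporters that work with the carriers were then counted, each list beside the shares of all tested genes given above. Of 18 genes of the citric acid cycle 9 were lower and 0 higher in mdx, with a median of -0.45 on the log2 scale against -0.27 for the members. The largest falls were those of Suclg2 (-0.67 ± 0.12, limma adjusted p = 0.0033), Idh3a (-0.66 ± 0.15, 0.00883) and Suclg1 (-0.62 ± 0.15, 0.0128), subunits of succinyl-CoA ligase and of the NAD-dependent isocitrate dehydrogenase. In dy2J 1 was higher and 1 lower, with a median of -0.30. Idh2, the NADP-dependent isocitrate dehydrogenase of the matrix, measured 49.1, 60.8 and 56.1 FPKM in WT, 51.1, 48.1 and 58.1 in mdx, and 124 and 125 in dy2J. It rose in dy2J by 1.16 ± 0.13 on the log2 scale against WT (limma adjusted p = 0.00101) and by 1.24 ± 0.13 against mdx (limma adjusted p = 0.00143). Suclg1 fell in dy2J by 0.58 ± 0.17 (limma adjusted p = 0.041).

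The carnitine shuttle, the partner of Slc25a20, had 3 of 5 genes lower in mdx and 1 higher, with a median of -0.87 on the log2 scale. Cpt1b, the muscle carnitine palmitoyltransferase of the outer membrane, fell by 0.97 ± 0.11 (limma adjusted p = 0.000612), Crat by 0.90 ± 0.12 (limma adjusted p = 0.000907) and Cpt2 by 0.87 ± 0.12 (limma adjusted p = 0.00127). Cpt1a, the liver-type isoform, was the 1 that rose, by 0.74 ± 0.18 (limma adjusted p = 0.0113). In dy2J Crat fell by 0.52 ± 0.13 (limma adjusted p = 0.0253) and Cpt1b by 0.46 ± 0.12 (limma adjusted p = 0.0325), and both Cpt2 and Cpt1b were higher in dy2J than in mdx (0.60 ± 0.14, limma adjusted p = 0.0382, and 0.50 ± 0.12, limma adjusted p = 0.049).

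Of the 4 malate-aspartate shuttle enzymes, the partners of Slc25a11 and Slc25a12, 3 fell in mdx: Mdh1 by 0.75 ± 0.15 (limma adjusted p = 0.00621), Got1 by 0.68 ± 0.20 (0.0271) and Got2 by 0.56 ± 0.15 (0.0213). In dy2J limma called 0 of these 4 and 0 had an unadjusted p under 0.05. Of 16 ATP synthase genes 1 was higher and 2 lower in mdx. Atpif1, which inhibits the enzyme when it runs in reverse, rose in mdx by 1.06 ± 0.09 (limma adjusted p = 0.000217) and in dy2J by 0.47 ± 0.10 (limma adjusted p = 0.0151), the only call of the list in dy2J. The subunit genes Atp5g1 and Atp5c1 fell in mdx by 0.61 ± 0.19 (limma adjusted p = 0.0351) and 0.55 ± 0.14 (limma adjusted p = 0.017).

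Of 18 other transporters of the inner membrane 6 were higher and 5 lower in mdx, and 1 higher and 3 lower in dy2J. In mdx Ccdc109b, a subunit of the calcium uniporter, rose by 1.06 ± 0.25 (limma adjusted p = 0.0119), Slc8b1, the sodium/calcium exchanger, by 1.0 ± 0.16 (limma adjusted p = 0.00203), and the pyruvate carrier subunit Mpc1 fell by 0.77 ± 0.17 (limma adjusted p = 0.0088). In dy2J the uniporter regulators Micu3 and Micu2 differed by -0.70 ± 0.16 (limma adjusted p = 0.0183) and 0.47 ± 0.10 (limma adjusted p = 0.0152), and the sideroflexin Sfxn5 by -0.56 ± 0.14 (limma adjusted p = 0.023). The outer membrane channel Vdac1 fell in mdx by 0.56 ± 0.16 (limma adjusted p = 0.0231), the 1 call among 3 channels. In dy2J limma called 0 of the 3 channels, and all 3 had an unadjusted p under 0.05.

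Of 14 genes that import carriers into the inner membrane 2 were higher and 1 lower in mdx. Tomm22, a receptor of the outer membrane, rose by 0.38 ± 0.10 (limma adjusted p = 0.0226), Timm10b by 0.27 ± 0.09 (limma adjusted p = 0.0411), and the chaperone Timm8b fell by 0.37 ± 0.13 (limma adjusted p = 0.0489). In dy2J limma called 0 of the 14, with 3 at an unadjusted p under 0.05. Of 4 tested enzymes of mitochondrial folate metabolism Mthfd2 rose in mdx by 0.99 ± 0.21 (limma adjusted p = 0.00659), and Aldh1l2 fell in dy2J by 0.55 ± 0.15 (limma adjusted p = 0.034). Of 10 enzymes of heme and iron-sulfur synthesis 4 fell in mdx and 2 in dy2J. Isca1 fell by 0.58 ± 0.14 (limma adjusted p = 0.013), Cpox by 0.56 ± 0.09 (limma adjusted p = 0.00242) and Alas1 by 0.43 ± 0.13 (limma adjusted p = 0.0336) in mdx, and Alas1 by 0.59 ± 0.15 (limma adjusted p = 0.0262) and Cpox by 0.52 ± 0.10 (limma adjusted p = 0.011) in dy2J.

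**Figure D5:**
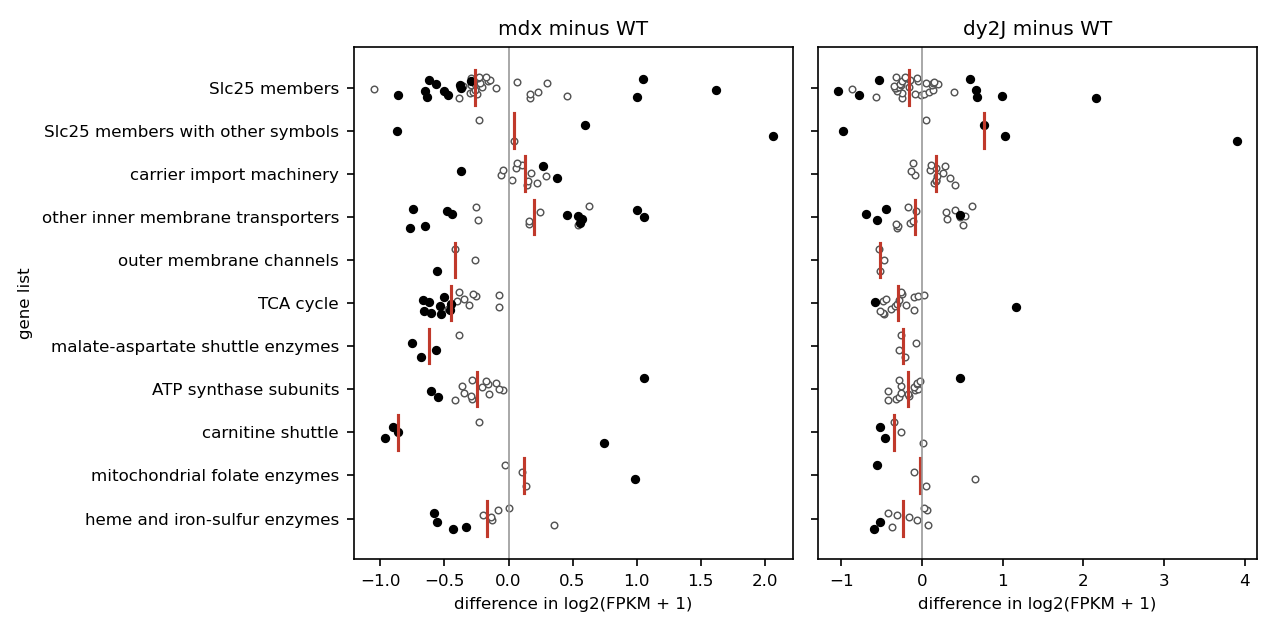
Difference in log2(FPKM + 1) from WT for the Slc25 members and for lists of genes that work with them, with 1 point per tested gene (filled: limma adjusted p under 0.05) and a red line at the list median. In mdx the medians of the citric acid cycle (-0.45) and of the carnitine shuttle (-0.87) lie below that of the members (-0.27), and Ucp1 is the point near 4 in the dy2J panel.

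The authors' deposited table gives its own q-values for both comparisons with WT. By the authors' deposited table, q was under 0.05 for 10 members in mdx, of which 8 are among the 13 called here, and 7 in dy2J, of which 6 are among the 8 called here. Each of these counts includes Slc25a45, which reached the minimum only through the models. In mdx Slc25a10 and Slc25a25, and in dy2J Slc25a25, passed in the authors' deposited table only. Slc25a12 and Slc25a22, called here in both models, passed in neither in the authors' deposited table. There Slc25a12 had q = 0.431 in mdx and 0.557 in dy2J, and Slc25a22 had q = 0.619 and 0.279.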

How the data were processed

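Total RNA of quadriceps muscle was pooled and sequenced as 8 libraries, per the labels. Groups were taken from the labels. The deposited table gives FPKM per library for 43628 genes, as computed by the authors, and q-values (adjusted p-values) for each model against WT, per the file headers. As upstream software, the submitters' processing notes list the build GRCm38 and, in no stated order, Cufflinks 2.2.1 with Cuffnorm and Cuffdiff, TopHat2 2.0.13, Trim Galore 0.3.7 and bcl2fastq 2.15.0.4. Their settings, the use of strand and the scaling between libraries are not given in the sources used here.

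A check for whole reads used low values of 13141 genes with 1 transcript. At best 25.1% to 28.2% lay within 0.1 of a whole multiple, where chance gives 20%, so the depth is unknown and no interval for counting error is given. Summed FPKM per library was 556218 to 785513, which is not a depth.

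The 12830 genes that reached 1 FPKM in at least 2 libraries were tested in R 4.3.3 with limma 3.58.1 on log2(FPKM + 1), which understates the change of low genes. All 8 libraries entered 1 model with a term per genotype and a mean-variance trend (5 residual degrees of freedom). Tests were two-sided, with Benjamini-Hochberg adjustment over all genes per comparison and a threshold of 0.05. For 1 gene, exact permutation gives no p below 0.1. The script was tested on simulated data. Alternatives were pseudocounts of 0.1 and 0.5, no minimum, a mean of at least 5 FPKM, quantile normalization, rescaling by the median ratio, the compared groups alone, no trend, a replicate block, values of 0 as missing, and each library left out.

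The members and lists were chosen with earlier results of these data known. Library values are given for each member called in at least 1 comparison and for the 6 with the highest WT means, other members by their WT mean or range, and at most 3 called genes with the largest change per companion list. Values of Slc25a25, Slc25a23, Slc25a17, Slc25a37, Cpt1a, Ucp1, Idh2 and Adipoq were given after they were seen. Shared sequence was found from 50-base stretches of GENCODE M21 transcripts, and promoters came from RefSeq (GRCm38.p6). Protein sequences were not analysed here, and 1 member and 1 marker gene are not reported here by name. Figures used matplotlib 3.10.9, pandas 2.3.3, numpy 2.4.6 and Python 3.11.15.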

Additional observations from a re-analysis of the deposited data

Results flagged for a closer look

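The models differed from each other in their difference from WT for 2 members, tested by the direct comparison of dy2J with mdx. For Slc25a1, the citrate carrier, the effect in dy2J minus that in mdx was 1.99 on the log2 scale (limma adjusted p = 0.00619), with WT at 3.60 to 8.44 FPKM, mdx at 5.01 to 7.66 and dy2J at 24.9 and 29.4. For Slc25a24, an ATP-Mg/phosphate carrier, it was -0.94 (limma adjusted p = 0.0134), with WT at 2.48 to 2.75 FPKM, mdx at 8.64 to 12.6 and dy2J at 4.24 and 5.27. Both calls were lost without dy2J 1 (1.87 and -1.07 on the log2 scale) and that of Slc25a24 also without dy2J 2 (-0.81).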

How the results depend on the processing

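All 3 comparisons kept the direction of every called member under every alternative run. Leaving out Slc25a45, which reached the minimum only through the models, of 12 member calls in mdx against WT 6 held in all alternatives (Slc25a5, Slc25a12, Slc25a20, Slc25a22, Slc25a24 and Slc25a42), of 7 in dy2J against WT 2 held (Slc25a1 and Slc25a22), and of 2 in dy2J against mdx 0 held. The 10 members lower in mdx became 21 after quantile normalization and 20 after rescaling by the median ratio, where the median of all genes moved from 0.07 to -0.07 and -0.01, and 4 to 17 with 1 library left out. Lower calls over all genes moved too, from 1645 to 2947 and 2425, and to between 1114 and 2024 with 1 library left out. The 5 members higher in dy2J than in WT, Slc25a45 included, became 1 with no expression minimum, where more genes were tested. Without 1 WT or mdx library they became 1 to 6, while the higher calls over all genes went from 1478 to between 912 and 1825. The 3 lower became 5 with the compared groups alone and 2 to 5 without 1 WT or mdx library. Over all genes the lower calls went from 1160 to 1749 and to between 608 and 1492. In dy2J against mdx the 1 higher member became 3 after quantile normalization or median ratio rescaling and 0 to 3 with 1 library left out, and the 1 lower member 0 to 1. Apart from fewer libraries or more genes, the cause was not tested. Members not called became so when 1 library was left out in 13 cases in mdx (among them Slc25a3, Slc25a16, Slc25a23, Slc25a33, Slc25a35, Slc25a46 and Slc25a51 without mdx 3, Slc25a10 without WT 3, Slc25a17 without mdx 1, Slc25a37 without mdx 2, and Slc25a25 and Slc25a30 without WT 1), in 4 in dy2J against WT and in 2 in dy2J against mdx. Replicate numbers did not pair the libraries: deviations of same-numbered libraries correlated at 0.045 to 0.085 between WT and mdx, -0.007 and 0.051 between WT and dy2J, and -0.086 and -0.146 between mdx and dy2J. With a replicate block the members higher in dy2J than in WT numbered 3 in place of 5, and the other 5 counts stayed within 1.5 times. FPKM hide the depth, so small changes of members near 1 FPKM cannot be given a counting error.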
